A study of Homo sapiens with 16 samples.

Results

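The 6 genes described here are MAF, a transcription factor, and 5 genes that myeloma work counts among its targets: CCND2, ITGB7, NUAK1, CCR1 and CX3CR1. They were taken by gene symbol from the deposited count table. All 6 of the 6 symbols were found among its 23354 genes, and all 6 also passed the filter on low counts that left 14215 genes for testing.

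MAF is a basic leucine zipper protein of the large Maf group that binds DNA as a dimer at Maf recognition elements and activates transcription from them. In a subset of myelomas, and in the MM1 lines, a translocation places MAF under the control of the immunoglobulin heavy chain locus, and the gene is then strongly expressed. Its target cyclin D2 drives entry into the cell cycle, its target integrin beta 7 mediates adhesion of myeloma cells to bone marrow stroma, and chemokine receptors and the kinase NUAK1 have been added to the list.

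Ribosome-depleted total RNA was sequenced from MM1S, a human multiple myeloma line that is glucocorticoid sensitive, and from MM1R, its glucocorticoid-resistant counterpart. Each line was treated for 48 h with vehicle (Veh), with 0.1 μM TAK-981 (TAK), which inhibits the E1 enzyme that activates SUMO proteins, with 1 μM dexamethasone (Dex), a synthetic glucocorticoid, or with both drugs at these doses (combo). There were 2 libraries in each of the 8 groups. Each sensitivity class is thus a single cell line, and a difference between MM1S and MM1R cannot be told apart from any other difference between these lines. The labels say that treatments were done in duplicate without saying whether the cultures were separate. The p-values thus measure only the spread between replicate libraries, pooled over the 8 groups, which may be technical.

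The 8 MM1S libraries held 15707587 to 20644510 counts each, and the 8 MM1R libraries 18987739 to 24796539. The labels call the cells B lymphoblasts, but the 3 B cell markers given here (MS4A1, PAX5 and CD22) together reached at most 0.495 CPM (each library's counts divided by its scaled total, times 1e+06) in any MM1S library and 0.542 CPM in any MM1R library, and 2 of them had at most 3 counts in each library. The 8 markers of other lineages (among them CD3E, CD14 and EPCAM) summed to between 3.08 and 15.8 CPM in MM1S and between 7.34 and 9.66 CPM in MM1R. The 9 plasma cell markers summed to between 3370 and 4750 CPM in MM1S and between 5410 and 6130 CPM in MM1R. NR3C1, which encodes the glucocorticoid receptor, stood at 283 and 277 CPM in the MM1S vehicle libraries and at 19.9 and 17.9 CPM in the MM1R vehicle libraries. Replicates differed most, relative to counting error, in the MM1S TAK and MM1S Dex groups. Chi-square per degree of freedom was 22.6 and 20.4 there, against 2.15 to 9.66 in the other groups. Since the spread was pooled over all groups, p-values that involve these noisier groups may be too small. In bulk RNA, fewer cells with a transcript and less of it per cell cannot be told apart.

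By hg19 positions in the count table, MAF lies on chromosome 16 from 79627745 to 79634622 on the minus strand. CCND2 lies on chromosome 12 from 4382902 to 4414522 on the plus strand. The other members on chromosome 12 are ITGB7, from 53585107 to 53601000, and NUAK1, from 106457125 to 106533811, both on the minus strand. CCR1, from 46243200 to 46249832, and CX3CR1, from 39304985 to 39323226, lie on the minus strand of chromosome 3. CCR1 lies within the span of CCR3 on the opposite strand. CCR3 held between 56 and 128 counts in each library, and since use of strand in counting is not given in the sources used here, reads of the pair may not be fully separated.

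RefSeq promoter windows (GRCh38.p14) were found for 5 of the 6 members, with 7 start sites among them and none for CCND2. The 250 bases before each start were searched on both strands for the Maf half-site TGCTGA (reverse complement TCAGCA), the glucocorticoid receptor half-site TGTTCT, the cAMP response element TGACGTCA and the TATA box TATAAA. These motifs do not overlap in the stretches shown. Stretches of both genes follow and are printed because they hold the Maf half-site in the MAF gene itself and in CX3CR1, the member with the widest range of levels. Capitals mark matches to a searched motif, and both run 5′ to 3′ on the minus strand.
MAF, chr16:79600754-79600783: cTGACGTCAcgagtgcTATAAAacTCAGCA
CX3CR1, chr3:39280485-39280514: gcagattctaatTCAGCAgatatagggcag

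The MAF stretch covers bases 46 to 17 before the start, with the cAMP response element, the TATA box and the half-site in that order. The CX3CR1 stretch covers bases 73 to 44 before a single start site of that gene, and its windows at other start sites lack the half-site. The half-site occurred in 2 of the 7 member windows and in 14% of all 35116 windows of this length. The cAMP response element was in 1.65% of all windows and the TATA box in 10.7%, and each was in 1 member window, that of MAF. TGTTCT was in none of the 7 member windows and in 12.4% of all windows. A match is a description of letters and shows no binding.

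Transcript levels of MAF were high in both lines and rose with TAK in both, whereas Dex raised them in MM1S. In MM1S the 2 libraries of each group held 1466 and 1555 CPM with vehicle, 2279 and 2188 CPM with TAK, 2207 and 2264 CPM with Dex, and 2338.5 and 2411 CPM with combo. All 6 treated MM1S libraries lay above both vehicle libraries, and the TAK and Dex groups overlapped. Relative to vehicle, the log2 fold change was 0.56 ± 0.05 (SE) with TAK, 0.57 ± 0.05 with Dex and 0.65 ± 0.05 with combo, and each passed the test, with edgeR adjusted p values of 8.91e-08, 1.21e-07 and 6.49e-09.

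In MM1R, MAF stood at 1298 and 1316 CPM with vehicle, 2110 and 2040 CPM with TAK, 1299 and 1219.5 CPM with Dex, and 2199.7 and 2059 CPM with combo. The Dex libraries overlapped those of vehicle, and the combo libraries overlapped those of TAK. The log2 fold change from vehicle was 0.67 ± 0.05 with TAK (edgeR adjusted p = 1.25e-08) and 0.70 ± 0.05 with combo (adjusted p = 6.58e-09). With Dex alone it was -0.05 ± 0.05, with a 95% interval from -0.17 to 0.06. Within a line the 3 treatment comparisons share the same vehicle libraries.

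Without drug, MAF was slightly lower in MM1R than in MM1S, with a log2 difference of -0.21 ± 0.05 (edgeR adjusted p = 0.00408). That call was lost when the second MM1S vehicle library was left out (log2 fold change -0.17, adjusted p = 0.0601). Per kilobase of transcript, MAF reached 220 CPM in MM1S vehicle, rank 158 among the 14215 tested genes, and 345 CPM in MM1S combo, rank 66. Across the 8 groups its highest mean was 1.89 times its lowest, so the range of MAF itself was narrow.

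CCND2, the cyclin D2 gene, moved opposite to MAF in every group where MAF rose. The MM1S libraries held 2361 and 2236 CPM with vehicle, 1332 and 1401 CPM with TAK, 1309 and 1362 CPM with Dex, and 677 and 750 CPM with combo. No treated MM1S library reached the vehicle level, and both combo libraries lay below every single-drug library. Levels fell to 59.5% of vehicle with TAK (log2 fold change -0.75 ± 0.06, edgeR adjusted p = 3.18e-09), to 58.1% with Dex (-0.78 ± 0.06, adjusted p = 2.32e-09) and to 31% with combo (-1.69 ± 0.06, adjusted p = 1.43e-14).

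MM1R carried more CCND2 and lost less of it. Its libraries held 2976 and 3058 CPM with vehicle, 2472.5 and 2403.5 CPM with TAK, 2909 and 2957 CPM with Dex, and 2399 and 2436 CPM with combo. The TAK and combo groups overlapped, and the Dex libraries lay just below those of vehicle. CCND2 fell with TAK by 0.31 on the log2 scale (SE 0.06, edgeR adjusted p = 0.000156) and with combo by 0.32 (SE 0.06, adjusted p = 0.00011). The Dex value was -0.04 ± 0.06. In vehicle, MM1R exceeded MM1S by 0.39 ± 0.06 (adjusted p = 1.69e-05), and the lowest MM1R combo library still lay above the highest MM1S vehicle library.

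**Figure D1:**
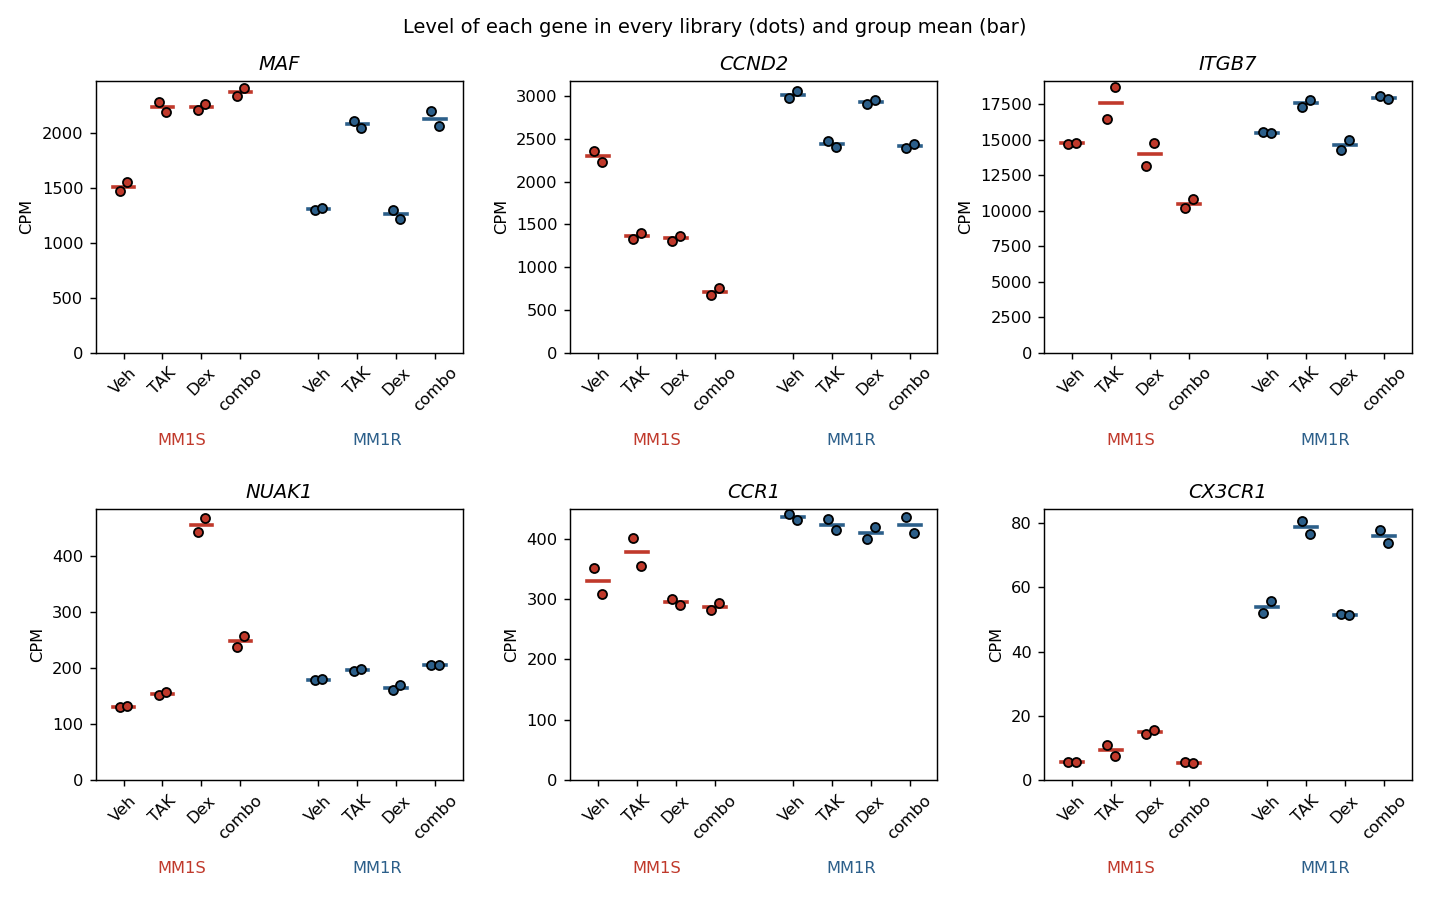
Each panel plots 1 gene in CPM on a linear axis from 0, with a dot for each of the 16 libraries and a bar for each group mean, MM1S in red and MM1R in blue. MAF rose with TAK in both lines, CCND2 fell to between 677 and 750 CPM in MM1S combo, NUAK1 peaked in MM1S Dex at 442 and 467 CPM, and CX3CR1 lay above 51 CPM in every MM1R library and below 16 CPM in every MM1S library.

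ITGB7, integrin beta 7, was by far the most abundant member. Per kilobase it held 4014 CPM in MM1S vehicle and 4216 CPM in MM1R vehicle, rank 8 of the 14215 tested genes in both, and it took 1.52% and 1.53% of all counts in these groups. In MM1S its libraries held 14710 and 14794 CPM with vehicle, 16439 and 18700.0 CPM with TAK, 13160.0 and 14749 CPM with Dex, and 10167 and 10802 CPM with combo. The combo libraries were the lowest of all 16, while the Dex libraries overlapped those of vehicle.

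In MM1S the log2 fold change of ITGB7 was 0.25 ± 0.06 with TAK (edgeR adjusted p = 0.0029), -0.08 ± 0.06 with Dex (adjusted p = 0.33) and -0.49 ± 0.06 with combo (adjusted p = 2.13e-06). The rise with TAK was 0.15 with adjusted p = 0.123 when the second MM1S TAK library was left out. In MM1R the libraries ranged from 15446 to 15542 CPM with vehicle, from 17321 to 17815 CPM with TAK, from 14250.0 to 14998 CPM with Dex and from 17837 to 18043 CPM with combo. The TAK and combo groups lay above vehicle there and the Dex group below. ITGB7 rose by 0.18 ± 0.06 with TAK (adjusted p = 0.0221) and by 0.21 ± 0.06 with combo (adjusted p = 0.0094), and gave -0.08 ± 0.06 with Dex. The first of these did not pass when any one of the MM1R vehicle or TAK libraries was left out (adjusted p 0.0562 to 0.123), nor the second without the second vehicle library (0.0576) or the first combo library (0.0571). Without drug the lines differed by 0.07 ± 0.06 (adjusted p = 0.377), and the 95% interval of that difference ran from -0.06 to 0.20.

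NUAK1, also known as ARK5, encodes a kinase related to AMP-activated protein kinase that acts in cell survival and invasion. The MM1S libraries held 130.4 and 132 CPM with vehicle, 153 and 156 CPM with TAK, 442 and 467 CPM with Dex, and 238 and 257 CPM with combo. None of the 8 groups overlapped a neighbour in level for this gene, but with 2 libraries in a group that alone shows no difference. In MM1R neither TAK nor Dex passed the test against vehicle, nor did combo against TAK. The share of all genes without such overlap was not counted. The response to Dex in MM1S was 3.46-fold (log2 fold change 1.79 ± 0.06, edgeR adjusted p = 3.9e-14), and 2.43% of tested genes changed more in either direction. TAK raised NUAK1 by 0.23 ± 0.06 (adjusted p = 0.00245) and combo by 0.92 ± 0.06 (adjusted p = 9.95e-11), so that combo stood 0.88 ± 0.06 below Dex alone (log2 fold change -0.88, adjusted p = 4.98e-10).

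In MM1R, NUAK1 ranged from 179.0 to 179.6 CPM with vehicle, from 194 to 197 CPM with TAK, from 161 to 169 CPM with Dex and from 204 to 205 CPM with combo. Of the 3 comparisons with vehicle, that of combo passed there (0.19 ± 0.06, edgeR adjusted p = 0.00908), but it missed the threshold when either MM1R vehicle or either MM1R combo library was left out (adjusted p 0.0504 to 0.0563). The TAK value was 0.13 ± 0.06 (adjusted p = 0.0678) and the Dex value -0.12 ± 0.06. In vehicle, MM1R exceeded MM1S by 0.45 ± 0.06 (adjusted p = 4.64e-06).

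CCR1, a receptor for inflammatory chemokines such as CCL3, varied least among the members. Its 8 MM1S libraries ranged from 282 to 401 CPM and its 8 MM1R libraries from 400.1 to 442 CPM, and the highest group mean was 1.52 times the lowest. In MM1S it stood at 351 and 309 CPM with vehicle, 401 and 356 CPM with TAK, 299 and 290 CPM with Dex, and 282 and 293 CPM with combo. The log2 fold change was 0.20 ± 0.07 with TAK (edgeR adjusted p = 0.0236), -0.16 ± 0.07 with Dex (adjusted p = 0.062) and -0.20 ± 0.07 with combo (adjusted p = 0.0175). The rise with TAK was lost without the second vehicle library (0.10, adjusted p = 0.315), without the first TAK library (0.11, adjusted p = 0.249) and with library sizes left unscaled (0.15, adjusted p = 0.0926). The fall with combo was lost without the first vehicle library (-0.11, adjusted p = 0.279) or the first combo library (-0.17, adjusted p = 0.102). The Dex value passed without the second vehicle library (-0.26, adjusted p = 0.0182). In MM1R the 3 treatment values lay between -0.09 and -0.04 and none passed. Vehicle levels were 0.40 ± 0.07 higher in MM1R (adjusted p = 0.000105).

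CX3CR1, the receptor for fractalkine, was the least abundant member and differed most between the lines. The MM1S libraries held 5.59 and 5.59 CPM with vehicle, 11.1 and 7.51 CPM with TAK, 14.4 and 15.7 CPM with Dex, and 5.57 and 5.39 CPM with combo. Either drug alone lifted every library above vehicle, and both drugs together left the gene at 98.1% of its vehicle mean. The log2 fold change was 0.73 ± 0.15 with TAK (edgeR adjusted p = 0.000388), 1.43 ± 0.14 with Dex (adjusted p = 1.02e-07) and -0.03 ± 0.16 with combo, whose 95% interval ran from -0.37 to 0.31. The TAK value was 0.42 without the first MM1S TAK library (adjusted p = 0.0178) and 0.99 without the second.

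In MM1R, CX3CR1 stood at 52 and 55.6 CPM with vehicle, 80.6 and 76.5 CPM with TAK, 51.5 and 51.4 CPM with Dex, and 77.7 and 73.9 CPM with combo. The TAK and combo groups overlapped each other and lay above vehicle. It rose by 0.55 ± 0.09 with TAK (edgeR adjusted p = 6.8e-05) and by 0.49 ± 0.09 with combo (adjusted p = 0.000191), against -0.06 ± 0.09 with Dex. In vehicle, MM1R held 9.62 times the MM1S level (log2 fold change 3.27 ± 0.12, adjusted p = 2.75e-13), which placed CX3CR1 82nd from the top among all 14215 genes in that comparison.

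Over the members as a group, TAK changed all 6 in MM1S, 5 higher and 1 lower, where 49% of all tested genes passed. The share of tested genes with a larger change in either direction was 18.5% for CCND2, 19% for CX3CR1 and 27.1% for MAF. It was 56.7% for ITGB7, 59.5% for NUAK1 and 64.7% for CCR1. All members but CX3CR1 had an SE of 0.05 to 0.07 there, against a median of 0.104 over all genes. Smaller changes could thus pass for them. In MM1R, TAK changed 4 of 6, 3 higher and 1 lower, where 53.4% of genes passed. MAF, ITGB7 and CX3CR1 rose and CCND2 fell in both. The median log2 fold change of the 6 was 0.24 in MM1S and 0.15 in MM1R, against 0.04 and 0.00 over all tested genes. With Dex, 4 of 6 changed in MM1S, 3 higher and 1 lower, against 42.3% of genes. In MM1R none of the 6 passed with Dex, and neither did any gene (0%), by edgeR or by DESeq2. An unadjusted p under 0.05 was found for 395 of the 14215 genes, among them NUAK1 (edgeR unadjusted p = 0.0474). That is a smaller share than the 0.05 that no effect at all would give.

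The combo changed 5 of 6 members against vehicle in MM1S, 2 higher and 3 lower, and 5 of 6 in MM1R, 4 higher and 1 lower, where 60.3% and 51.5% of genes passed. Shares of members near the share of all genes say nothing particular about them, and the treatments moved much of the transcriptome. Against TAK alone, the combo in MM1S left 1 member higher (NUAK1) and 4 lower, with 35.1% of genes passing. Against Dex alone it left 4 of 6 lower in MM1S (CCND2, ITGB7, NUAK1 and CX3CR1), with 47.6% passing. In MM1R the combo differed from Dex alone for 5 of 6 members, 4 higher and 1 lower (48.4% of genes). It differed from TAK alone for none (0% of genes by edgeR and by DESeq2). The 214 genes at an unadjusted p under 0.05 there, no member among them, were a smaller share than no effect would give.

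**Figure D2:**
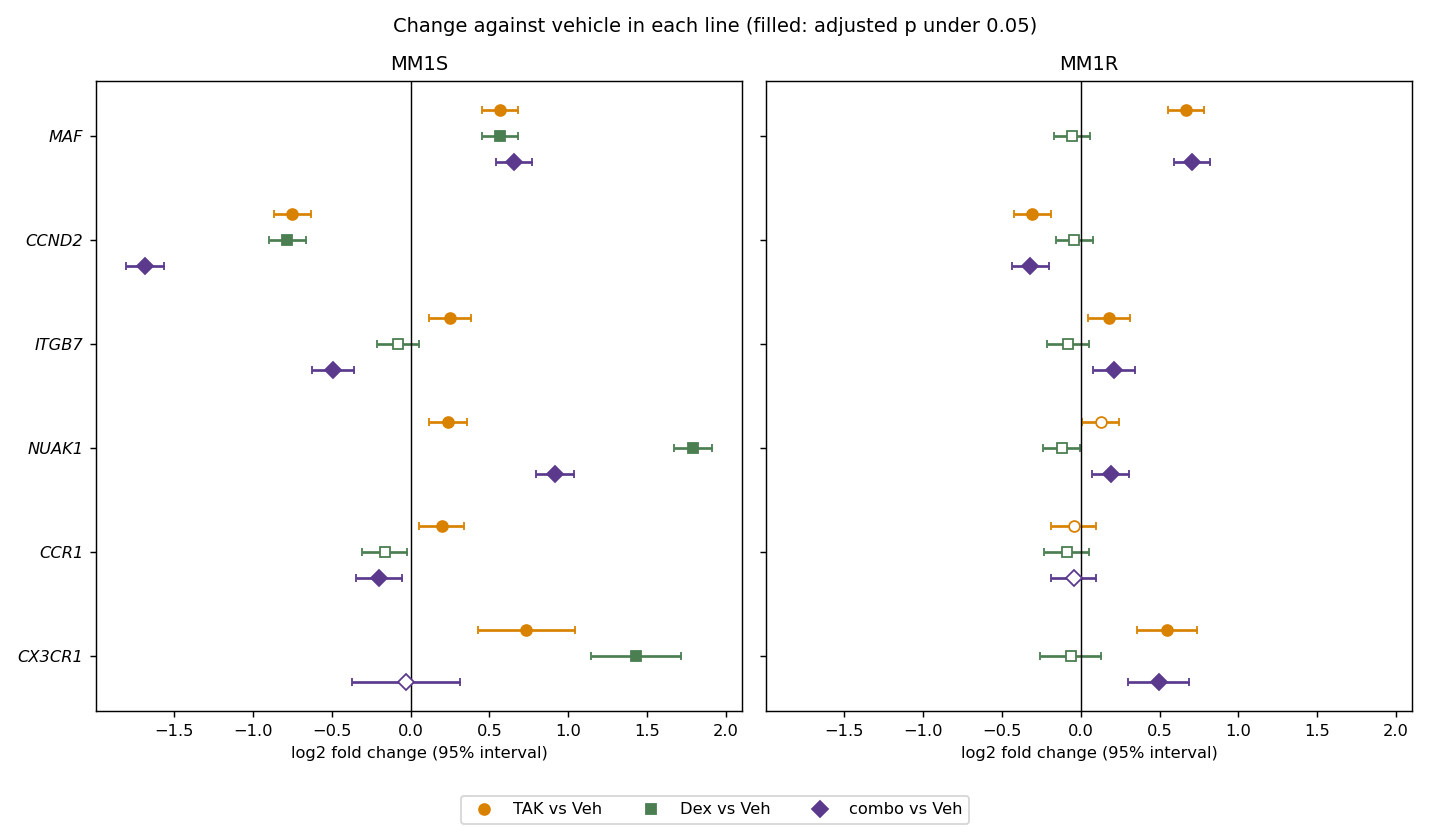
The log2 fold change of each gene against vehicle is plotted with its 95% interval for TAK (circles), Dex (squares) and combo (diamonds) in each line, filled where the adjusted p was under 0.05. In MM1S, combo brought CCND2 to -1.69 and CX3CR1 to -0.03, and in MM1R the 6 Dex values sat between -0.12 and -0.04.

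Whether both drugs together gave the sum of the single-drug changes on the log2 scale was tested within each line. In MM1S, 4 of 6 members fell short of the sum, where 14.9% of all tested genes departed from it in either direction. For CX3CR1 the single drugs summed to 2.16 and the combo gave -0.03, a shortfall of -2.19 ± 0.20 (edgeR adjusted p = 1.23e-06), rank 61 from the lowest among the 14215 genes. For NUAK1 the sum was 2.03 and the combo gave 0.92 (difference -1.11 ± 0.08, adjusted p = 6.81e-08).

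ITGB7 summed to 0.17 and gave -0.49 (difference -0.66 ± 0.09, edgeR adjusted p = 7.63e-05), so that combo lay below vehicle although neither drug alone lowered the gene past the test. MAF summed to 1.13 and gave 0.65 (difference -0.48 ± 0.08, adjusted p = 0.000421). For CCND2 the sum was -1.53 and the combo gave -1.69, a difference of -0.16 ± 0.08 that did not pass (adjusted p = 0.202, 95% interval -0.32 to 0.01). CCR1 gave a difference of -0.23 ± 0.10 (adjusted p = 0.117). All 6 differences were thus below 0 in MM1S, and the same 8 MM1S libraries enter each of them.

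In MM1R none of the 6 departed from the sum and neither did any gene (0% by edgeR and by DESeq2). Dex alone passed for no gene in MM1R, and combo differed from TAK for none. The sum there thus added no called Dex change to that of TAK, and the comparison cannot show how effects of both drugs combine. The 400 genes at an unadjusted p under 0.05 were a smaller share than no effect would give. The 6 differences there ran from 0.01 for CX3CR1 to 0.18 for NUAK1, which had an edgeR unadjusted p of 0.0342. The count of genes that departed from the sum in MM1S moved with single libraries and was 2125 with all libraries, 1044 without the first MM1S vehicle library and 3724 without the first MM1S TAK library. Of the members, 4 or 5 passed in each of these fits.

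**Figure D3:**
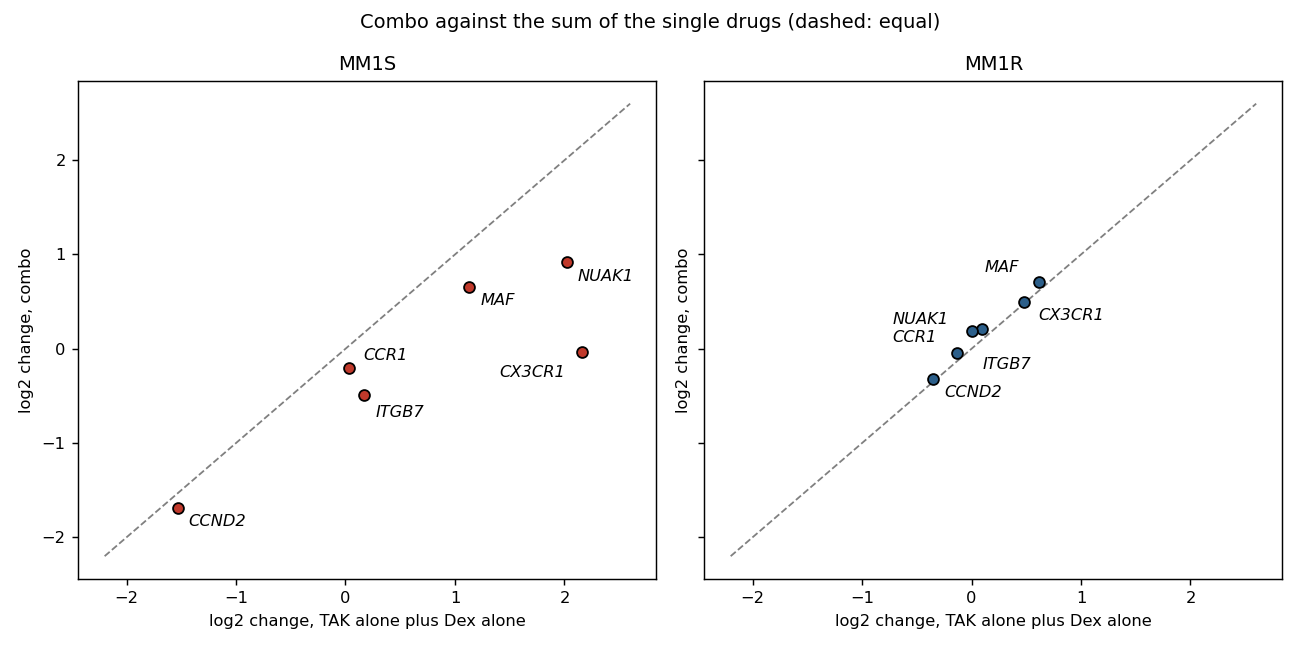
Each dot is 1 gene, with the summed log2 changes of TAK alone and Dex alone on the horizontal axis and the log2 change of combo on the vertical axis. All 6 MM1S dots lie below the dashed line of equality, furthest for CX3CR1 at 2.16 against -0.03, and the MM1R dots lie along it. Dex alone passed for no gene in MM1R, so those dots cannot show how effects of both drugs combine. The difference passed the test in MM1S for MAF, NUAK1, ITGB7 and CX3CR1 but not for CCND2 and CCR1.

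The line difference in the Dex response, MM1R minus MM1S, passed for 4 of 6 members, where 28.1% of all tested genes passed. It was -1.91 ± 0.08 for NUAK1 (edgeR adjusted p = 5.21e-12), -1.49 ± 0.16 for CX3CR1 (adjusted p = 1.66e-06), -0.62 ± 0.08 for MAF (adjusted p = 6.51e-06) and 0.74 ± 0.08 for CCND2 (adjusted p = 1.07e-06). For ITGB7 the difference was 0.00 ± 0.09 and for CCR1 0.07 ± 0.10. NR3C1 was 3.88 lower on the log2 scale in MM1R vehicle (log2 fold change -3.88 ± 0.08, adjusted p = 1.24e-16), and its part in these differences was not tested. FKBP5, a standard glucocorticoid-induced gene, rose by 4.60 ± 0.07 with Dex in MM1S and stood at 92.5 and 99.0 CPM with Dex in MM1R, against 93.0 and 96.4 CPM with vehicle.

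For TAK, the line difference passed for 1 of 6 members, CCND2, at 0.44 ± 0.08 (edgeR adjusted p = 0.00326), where 4.16% of genes passed: the fall was larger in MM1S. For MAF the difference was 0.10 ± 0.08, with a 95% interval from -0.06 to 0.26. CCR1 gave -0.24 ± 0.10 (adjusted p = 0.164) and the other 3 lay between -0.19 and -0.07. Without drug, 5 of 6 members differed between the lines, 4 higher and 1 lower in MM1R, where 48.2% of genes passed. The median of the 6 was 0.40, against 0.01 over all genes.

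The order of group means differed from gene to gene. For MAF the 5 groups with TAK, or with Dex in MM1S, came first and the 3 others last. For CCND2 all 4 MM1R groups stood above all 4 MM1S groups, as they did for CCR1 and CX3CR1. NUAK1 was highest in MM1S Dex and lowest in MM1S vehicle, with all MM1R groups between. Highest and lowest means differed 14.3-fold for CX3CR1, 4.23-fold for CCND2, 3.46-fold for NUAK1 and 1.71-fold for ITGB7.

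Among the Maf family and its basic leucine zipper partners, 11 of the 12 genes listed were tested. TAK raised 7 in MM1S and 8 in MM1R and lowered none, where 49% and 53.4% of all tested genes passed in either direction, and the list medians were 0.31 and 0.30 against 0.04 and 0.00 over all genes. Dex raised 3 and lowered 3 in MM1S, where 42.3% of genes passed. MAFA, a large Maf gene at a low level, rose with TAK in MM1S, from 0.33 and 0.56 CPM to 2.90 and 4.01 CPM (log2 fold change 2.95 ± 0.36, edgeR adjusted p = 2.11e-06). The rise was not limited to that group. Its mean stood at 445% of vehicle with Dex and 1143% with combo in MM1S. In MM1R it stood at 279% with TAK, 335% with combo and 93.5% with Dex. MAFF, a small Maf without an activation domain, was 1.11 lower in MM1R vehicle (log2 fold change -1.11 ± 0.12, adjusted p = 5.3e-07), and BACH2, a repressor that pairs with small Mafs, rose by 1.30 ± 0.09 with Dex in MM1S (adjusted p = 9.32e-10).

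The 8 tested of 10 further genes linked to MAF in myeloma or T cells did not move one way. In MM1S, TAK raised 4 and lowered 3 (49% of all genes passed), and Dex raised 3 and lowered 3 (42.3% passed). DEPTOR, an inhibitor of mTOR that is abundant in myelomas with MAF translocations, stood at 533 and 543 CPM in MM1S vehicle and rose by 0.83 ± 0.06 with Dex (edgeR adjusted p = 5.42e-09). It was 0.66 lower in MM1R vehicle (log2 fold change -0.66 ± 0.06, adjusted p = 1.52e-07). RND3, an atypical small GTPase, rose by 1.64 ± 0.09 with Dex in MM1S (adjusted p = 1.44e-10) and fell by 0.44 with TAK (SE 0.11, adjusted p = 0.00297), and its combo lay 0.83 ± 0.15 short of the sum (difference -0.83, adjusted p = 0.000927). NTRK2, a neurotrophin receptor, fell from 8.41 and 8.25 CPM to 2.02 and 1.56 CPM with Dex in MM1S (log2 fold change -2.22 ± 0.16, adjusted p = 1.74e-09).

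Cyclin D2 was the main D cyclin transcript in each group. Per kilobase it made up 96.9% of the 3 D cyclins in MM1S vehicle, 96.6% with TAK, 87.3% with Dex and 75.6% with combo, and between 97.1% and 98% in the 4 MM1R groups. CCND3 rose from 27.2 and 27.9 CPM to 88.8 and 104.3 CPM with Dex and to 111 and 116 CPM with combo in MM1S (log2 fold changes 1.81 ± 0.08 and 2.05 ± 0.08, edgeR adjusted p = 5.53e-12 and 1.57e-13). With TAK alone CCND3 fell, by 0.78 in MM1S (SE 0.09) and by 0.88 in MM1R (SE 0.09). CCND1 fell from 13.6 and 12.7 CPM to 3.73 and 4.19 CPM with Dex in MM1S (log2 fold change -1.73 ± 0.14, adjusted p = 1.22e-08). The 3 D cyclins summed to 364 CPM per kilobase in MM1S vehicle and to 145 in MM1S combo. Of the 7 tested genes of this list, which also holds CDK4, CDK6, RB1 and cyclin kinase inhibitors, TAK lowered 6 and raised 1 in MM1S, where 49% of all genes passed, and lowered 2 and raised 2 in MM1R, where 53.4% passed. The list medians were -0.30 and 0.15. CDKN1A, the inhibitor p21, was 1.94 ± 0.07 higher in MM1R vehicle (adjusted p = 1.6e-13).

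Integrin beta 7 pairs with the alpha 4 chain, encoded by ITGA4, or with alpha E, encoded by ITGAE. ITGA4 stood at 347 and 324 CPM in MM1S vehicle and 192.5 and 190.1 CPM in MM1R vehicle, with a line difference of -0.81 ± 0.06 on the log2 scale (edgeR adjusted p = 3.01e-09), while ITGB7 did not pass in that comparison. With Dex in MM1S, ITGA4 fell by 0.32 (SE 0.06, adjusted p = 0.000144), and with combo by 0.36 (SE 0.06, adjusted p = 2.16e-05). ITGAE was low, at 14.7 and 14.6 CPM in MM1S vehicle. FN1, the ligand fibronectin, fell by 2.10 with Dex (SE 0.08, adjusted p = 1.01e-12), and ITGB1, the beta chain that shares the alpha 4 partner, fell by 0.26 with Dex (SE 0.06, adjusted p = 0.00225). All 4 tested genes of the 7 listed fell with combo in MM1S, where 60.3% of all genes passed, with a median of -0.38 against 0.04 over all genes. In MM1R, 1 of the 4 fell with combo and none rose, where 51.5% of genes passed.

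Of 9 tested chemokine ligands and receptors other than the members, 6 fell and 1 rose with Dex in MM1S, where 42.3% of all genes passed, with a median of -0.70 against 0.01 over all genes. CCL3, a CCR1 ligand made by myeloma cells, fell from 472 and 447 CPM to 83.6 and 98.6 CPM with Dex and to 39.2 and 39.6 CPM with combo, and the Dex change was -2.33 ± 0.09 (edgeR adjusted p = 2.66e-13). CCL3L3, a near-identical copy, held 7.05 and 7.84 CPM in MM1S vehicle, and reads that match both genes may have been dropped or misassigned. CXCR4, the homing receptor for the bone marrow, rose from 25 and 23 CPM to 222 and 216 CPM with Dex (3.19 ± 0.07, adjusted p = 2.51e-16). The fractalkine gene CX3CL1 did not pass the filter on low counts.

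NUAK2, the closest relative of NUAK1, rose with TAK in both lines. It rose from 22.8 and 27.0 CPM to 55.7 and 59.4 CPM with TAK in MM1S (1.21 ± 0.08, edgeR adjusted p = 1.19e-09) and from 31.8 and 29.5 CPM to 84.3 and 83.9 CPM with TAK in MM1R (1.46 ± 0.08, adjusted p = 8.04e-11). With Dex in MM1S it rose by 0.44 ± 0.09 (adjusted p = 0.000482). Of the 6 genes in its list, NUAK2 itself and STK11, which encodes the upstream kinase LKB1, among them, Dex raised 4 in MM1S and lowered none, where 42.3% of all genes passed. CAB39, a partner of LKB1, was lower in MM1R vehicle (-0.47 ± 0.06, adjusted p = 4.88e-06), and STRADA, its pseudokinase partner, was higher (0.36 ± 0.08, adjusted p = 0.000674).

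**Figure D4:**
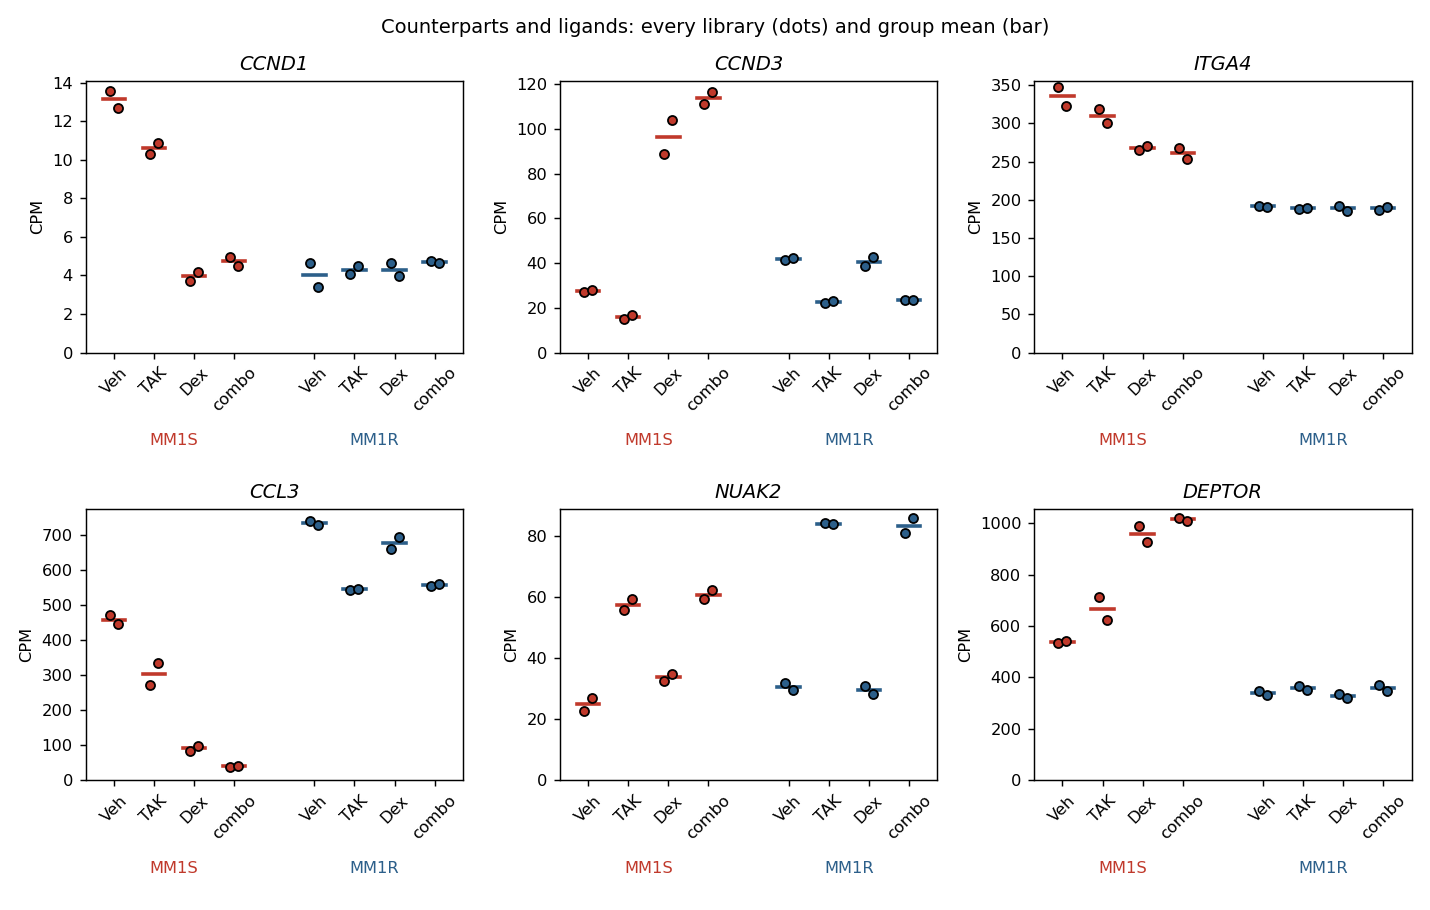
CPM of 6 genes related to the members is plotted for every library (dots) with group means (bars), MM1S in red and MM1R in blue, on linear axes from 0. In MM1S, CCND3 climbed above 88 CPM with Dex and combo while CCND1 and CCL3 dropped, NUAK2 rose with TAK in both lines, and DEPTOR rose with Dex in MM1S.

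The genes most like each member were ranked by Pearson correlation of mean log2 CPM over the 8 groups, among 9581 expressed genes. These correlations describe 8 points that share lines and treatments, and the nearest genes changed when the 16 libraries were used instead. Of the 5 nearest genes by groups, 3 were also among the 5 nearest by libraries for MAF, CCND2 and NUAK1, 4 for ITGB7, 2 for CX3CR1 and 1 for CCR1. For CCND2 the nearest were CKAP2L, C17orf53, XRCC2, IDH2 and SGO1, with r between 0.99 and 1.00. For MAF they were KCTD13, SNN, CARD16, DUSP10 and GALNT10 (r 0.98 to 0.99), and for NUAK1 they were HERPUD1, ELF4, FBXO31, WAS and NCK2 (r 0.95 to 0.98). ITGB7 was nearest to SDE2, STARD5, RUNX3, KDM4A and FAM174A (r 0.96 to 0.97), and CX3CR1 to AASS, PRKCD, MOB3A, MAP4K4 and LRRC41 (r 0.98 to 0.99). For CCR1 the nearest were AES, PRAME, CD70, STPG1 and EMP3 (r 0.98 to 0.99), of which STPG1 had r = -0.94 over the 4 MM1R groups, where CCR1 hardly varied.

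Between members, likeness depended on the line. MAF and CCND2 had r = -0.86 over the 4 MM1S groups and -0.99 over the 4 MM1R groups. MAF and CX3CR1 had 0.40 in MM1S and 0.99 in MM1R, and MAF and ITGB7 had -0.30 in MM1S and 0.98 in MM1R. Each r rests on 4 points, and in MM1R these fall into a pair of groups with TAK and a pair without.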

How the data were processed

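The authors deposited 1 table of raw whole-number counts per gene for 16 libraries, with hg19 positions. The submitters' processing notes name bcl2fastq 2.18.0.12, STAR 2.6.0, HTSeq 0.6.0, edgeR 3.28.1 and the build hg19. Use of strand is not given in the sources used here.

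The deposited counts were used unchanged. Genes were kept with filterByExpr (14215 of 23354), libraries were scaled by TMM, and the robust quasi-likelihood model of edgeR 4.0.16 in R 4.3.3 was fitted with a mean for each group over all 16 libraries, which leaves 8 residual degrees of freedom. There were 15 contrasts, each with Benjamini-Hochberg adjustment over all tested genes, and adjusted p under 0.05 counted as changed. Standard errors and 95% intervals come from the quasi-likelihood F statistic. The script was tested on simulated data.

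The members and gene lists were chosen with earlier results of these data known. All 6 members were named throughout. From each other list, up to 3 genes were named by the smallest adjusted p in MM1S TAK, MM1S Dex, MM1R TAK or MM1R against MM1S vehicle, besides CCND1, CCND3, ITGA4, ITGAE, NUAK2 and WWOX. For each member the 5 most correlated genes outside the lists were named. Some genes that these rules name are not reported here.

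Alternatives were RLE scaling, library size alone, no filter, a replicate block, DESeq2 1.42.0, fits of 1 line and leaving out each library.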

Additional observations from a re-analysis of the deposited data

Results flagged for a closer look

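In all, 5 values were flagged because the same drug gave a different response in the 2 lines, by the edgeR interaction test with adjustment over all 14215 genes. Each is the MM1R response minus the MM1S response on the log2 scale. For Dex they were -1.91 for NUAK1 (adjusted p = 5.21e-12), -1.49 for CX3CR1 (adjusted p = 1.66e-06), -0.62 for MAF (adjusted p = 6.51e-06) and 0.74 for CCND2 (adjusted p = 1.07e-06). For TAK the value was 0.44 for CCND2 (adjusted p = 0.00326). Of all tested genes, 28.1% passed this test for Dex and 4.16% for TAK. No gene passed with Dex in MM1R, so the Dex values largely restate the MM1S responses with the sign reversed. Groups of 2 libraries were too small to look for outlying samples.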

How the results depend on the processing

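With 2 libraries in each group, the calls against vehicle on ITGB7 with TAK and combo and NUAK1 with combo in MM1R, and on CCR1 with TAK and combo and ITGB7 with TAK in MM1S, and the MAF call between lines, could be lost by leaving out 1 library, and where 1 library was left out its group was assumed to vary like the others. The members' 90 values kept their direction and their side of the threshold under RLE scaling, without the filter and with DESeq2. Leaving out each of the 16 libraries in turn gave 1440 values, of which 1404 kept both, 16 lost a call, 5 gained one and 15 changed sign, none of them called with all libraries. With library sizes unscaled, CCR1 lost its call in MM1S TAK and gained one in MM1S Dex (adjusted p = 0.0368), and in fits of 1 line CCR1 lost its calls in MM1S TAK (adjusted p = 0.0837) and combo (0.0696) and NUAK1 gained one in MM1R TAK (0.00865). Unscaled, CX3CR1 in MM1R combo against the sum moved to -0.0048 and ITGB7 in the line difference for Dex to 0.0407. On leaving out libraries, the values that changed sign ranged in MM1R combo against TAK from -0.0325 to 0.0092 for CCND2, from -0.045 to 0.0402 for CCR1 and from -0.011 to 0.0842 for MAF. They ranged from -8e-04 to 0.0844 for CCR1 in MM1R combo against Dex, from -0.0369 to 0.0604 for CX3CR1 in MM1R combo against the sum, from -0.443 to 0.119 for CX3CR1 and -0.161 to 0.025 for ITGB7 in the line difference for TAK, and from -0.0827 to 0.0901 for ITGB7 and -0.0218 to 0.165 for CCR1 in the line difference for Dex. The cause was not tested.

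Counts of all genes moved more. MM1S combo against the sum gave 2125 genes, 779 in a fit of the MM1S libraries alone, 3579 with the replicate block, and 1044 to 3724 on leaving out libraries. The line difference for TAK gave 592 genes, 1313 without the filter, 2061 with the replicate block, and 200 to 2292 on leaving out libraries (2292 without the first MM1S TAK library and 200 without the first MM1R TAK library), with 1 to 2 members passing. Without the filter, MM1R Dex against vehicle gave 30 genes, MM1R combo against TAK 9 and MM1R combo against the sum 19. Leaving out libraries gave 0 to 9, 0 to 1 and 0 to 1 there. Members passing in MM1R combo against vehicle ranged from 3 to 5.

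Replicate numbers are shared by all groups but the labels do not say that they mark a culture or day. Differences between the 2 replicates correlated between the groups of a line at 0.15 to 0.62 in MM1S and at 0.07 to 0.25 in MM1R. With the replicate block, 4 values gained a call and none lost one: CCR1 in MM1S Dex (-0.16, adjusted p = 0.0153), in MM1S combo against the sum (-0.23, adjusted p = 0.0292) and in the line difference for TAK (-0.24, adjusted p = 0.034, making 2 members), and NUAK1 in MM1R TAK (0.13, adjusted p = 0.0239).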

Other observations

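Of 11 genes whose products are reported to act on MAF protein, by ubiquitin, SUMO or phosphate, TAK raised 1 and lowered 3 in MM1S and raised 2 and lowered 4 in MM1R, with medians of -0.07 and -0.10. In these comparisons 49% and 53.4% of all genes passed. SENP1, a SUMO protease, fell with TAK in both lines, from 72.3 and 68.1 CPM to 56.2 and 53.8 CPM in MM1S (log2 fold change -0.35 ± 0.07, edgeR adjusted p = 0.000337) and from 85.0 and 79.0 CPM to 66.7 and 65.1 CPM in MM1R (-0.32 ± 0.07, adjusted p = 0.00068). USP5 and USP7, deubiquitinases reported to stabilise MAF, fell with TAK in MM1R by 0.48 (SE 0.09, adjusted p = 0.000118) and by 0.26 (SE 0.05, adjusted p = 0.000313), where MAF transcript rose. In MM1S, where MAF transcript also rose, their means with TAK were 88.45% and 87.7% of vehicle. None of the 11 genes passed the line difference in TAK response, where 4.16% of all genes passed. MAF protein was not measured in these files.

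Near the MAF locus, WWOX, the gene that spans most of the known translocation breakpoints, was low, at 5.17 and 5.28 CPM in MM1S vehicle and 7.94 and 8.12 CPM in MM1R vehicle (0.62 ± 0.15, edgeR adjusted p = 0.00193). It rose to 9.44 and 7.62 CPM with TAK in MM1S (0.71 ± 0.15, adjusted p = 0.000701) and gave -0.05 ± 0.14 in MM1R, a line difference in response of -0.76 ± 0.20 (adjusted p = 0.0423). CENPN, a centromere protein gene further along the chromosome, fell with TAK and with Dex in MM1S, by 0.97 and 0.84 (SE 0.09 each, adjusted p = 4.29e-08 and 3.42e-07). CMC2 fell by 0.59 with Dex in MM1S (SE 0.12, adjusted p = 0.000574). Of 11 genes listed near the locus, 9 were in the table and 5 passed the filter.

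Of the 8 tested plasma cell markers, TAK raised 3 and lowered 3 in MM1S and raised 2 and lowered 3 in MM1R, with medians of 0.05 and -0.05, where 49% and 53.4% of all genes passed. IRF4, the plasma cell regulator on which myeloma cells depend, fell with TAK in both lines, by 0.60 in MM1S (SE 0.06, edgeR adjusted p = 7.87e-08) and by 0.66 in MM1R (SE 0.06, adjusted p = 3.13e-08), and by 0.90 with Dex in MM1S (SE 0.06, adjusted p = 5.91e-10).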
